A study of Mus musculus with 6 samples.

Results

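The laminin chains, integrin chains and adhesive glycoproteins of the extracellular matrix were compared in the mandibular arch of mouse embryos. The genes were taken by symbol. They are laminin chains (Lama, Lamb or Lamc with a number), integrin chains named Itga or Itgb with a number, and 12 single names: Fn1, Nid1, Nid2, Tnc, Vcan, Postn, Sparc, Fbn1, Fbn2, Eln, Hspg2 and Agrn. Of the 18194 genes represented by a probe set with 1 gene symbol, 41 met this rule: 10 laminin chains, 11 integrin alpha chains, 9 integrin beta chains and 11 of the 12 single names. Fbn1 and Itga11 were not analysed here. Each gene was read on its brightest probe set, and all 41 passed the filter on low values (a log2 value above 4 on 3 or more arrays), as did 16074 genes in all.

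Laminins are trimers of an alpha, a beta and a gamma chain that polymerize under epithelia, muscle and endothelium. With nidogens, the proteoglycans perlecan and agrin and network-forming collagen they build the basement membrane. Integrins are alpha-beta dimers in the cell membrane that bind laminin, fibronectin or other ligands outside the cell and couple them to actin through adaptor proteins inside. In the arches, neural crest mesenchyme fills the space between ectoderm, endoderm and a mesodermal core, and migrates and proliferates in a matrix rich in fibronectin and versican, while basement membranes line the epithelia and vessels.

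The samples were 6 Affymetrix Mouse Genome 430 2.0 arrays of mandibular arches at E10.5 from C57BL/6 embryos. 3 were labelled Tbx1+/+ (wild type) and 3 were labelled Tbx1-/-, homozygous for loss of a T-box transcription factor of pharyngeal development in the whole embryo (labelled-null below). The labels do not describe the allele. Tissue from 3 embryos of a genotype was combined. Whether each array had its own pool is not settled, so p-values measure the spread between these samples, which may be technical. The question the comparison asks is which transcripts of the arch differ when Tbx1 is lost.

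The targeted gene itself read 6.93, 7.31 and 6.92 (log2) on wild-type replicates 1, 2 and 3 and 7.59, 7.50 and 7.30 on labelled-null replicates 1, 2 and 3, so that its transcript was not lower on the labelled-null arrays. Which part of the gene was disrupted is not stated in the labels, so its probe set is no check on them. Mesenchyme markers of the arch were present on every array, with Prrx1 at 12.98 to 13.16 and Twist1 at 12.32 to 12.44. Labelled-null replicate 3 stood apart. The placental hormone Prl7a1 read 13.28 there and 3.53 to 4.76 on the other 5 arrays, and Prl4a1 read 13.19 against 5.26 to 6.04. Differences of the 41 genes that changed sign or moved by over 1.5 times without that array are given both ways below. In whole tissue, fewer cells of a type and less RNA per cell cannot be told apart.

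None of the 41 genes differed between the genotypes past the threshold, an adjusted p under 0.05 over all genes in limma, which 0.0373% of all genes passed. The adjusted p was 1.00 for each of them. At an unadjusted p under 0.05, 0 of the 41 were higher, where 1.47% of all genes were, and 0 were lower, where 1.2% of all genes were. The median difference was 0.06 (log2, labelled-null minus wild type) over the 41 genes and -0.01 over all genes tested. The mean was higher on the labelled-null arrays for 33 genes and lower for 8, where 47.3% of all genes tested had a higher mean. Without labelled-null replicate 3 it was higher for 27 of the 41, with a median of 0.07. For 37 genes the 95% interval of the difference lay within 1 on the log2 scale in either direction, and for 31 within a 1.5-fold change. The exceptions to the wider limit were Lama1, Postn, Itgb2 and Itgb3.

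**Figure D1:**
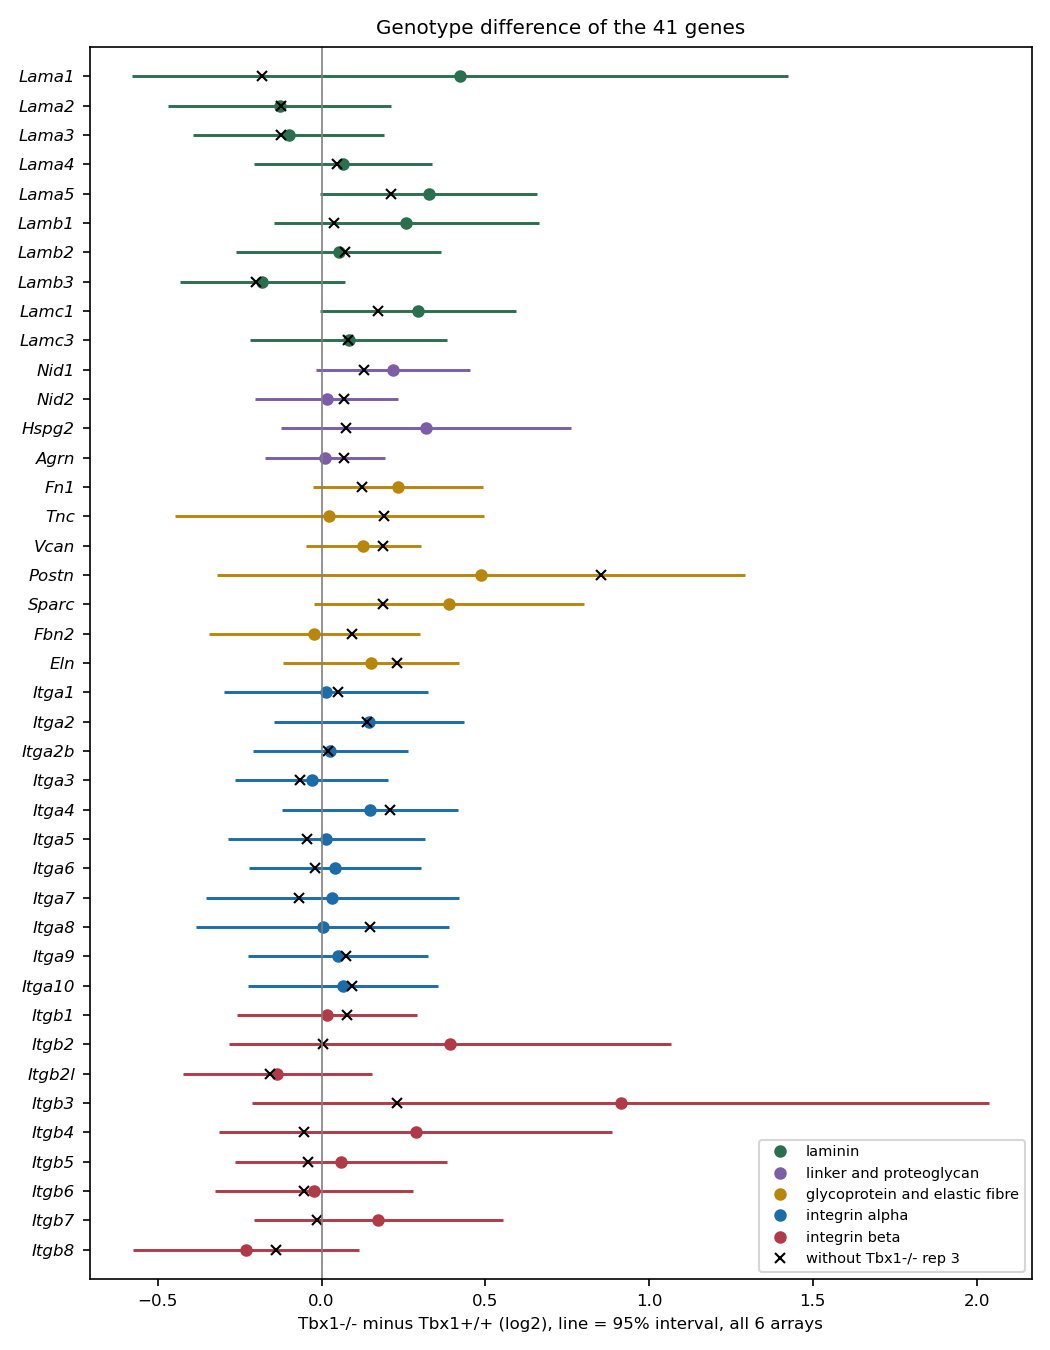
Difference between labelled-null and wild-type arrays (log2) for each of the 41 genes on the horizontal axis, as a dot with its 95% interval over 6 arrays, coloured by role. A cross gives the difference without labelled-null replicate 3; every interval crosses 0, and the widest, of Itgb3 and Lama1, belong to genes whose difference moved most without that array.

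Among the laminin alpha chains, Lama5, the broadly made chain of embryonic epithelial basement membranes, came nearest to a difference. It read 8.12, 8.54 and 8.39 on wild-type replicates 1, 2 and 3 and 8.56, 8.57 and 8.91 on labelled-null replicates 1, 2 and 3. Each of the 3 labelled-null arrays was above the 3 wild-type arrays, although the values of both genotypes for replicate 2 nearly met. The difference was 0.33 (SE 0.14, 95% interval -0.00 to 0.66, unadjusted p = 0.0522), and 0.21 (SE 0.14) without labelled-null replicate 3. Its second probe set gave 0.30 and a further, dim one -0.05. Lama5 was the 1 gene of the 41 whose labelled-null values were all above the wild-type values, as were those of 3.17% of all genes.

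Lama1, the alpha chain of the first laminin of the embryo and of its extraembryonic membranes, read 7.83, 8.19 and 8.15 on the wild-type arrays. On the labelled-null arrays it read 7.80, 7.96 and 9.69. The high value was labelled-null replicate 3 alone, and of the other 2 labelled-null values 1 lay within the wild-type range and 1 just below it. The difference was 0.42 (SE 0.44) with all arrays and -0.18 (SE 0.14) without that array, so its sign rested on it. Lama2, the chain of muscle basement membrane, read 7.15 to 7.54 on wild-type and 7.01 to 7.43 on labelled-null arrays and differed by -0.13 (SE 0.15). Lama4, the chain of vessel walls, read 8.01 to 8.37 and 8.19 to 8.25 and differed by 0.07 (SE 0.12). Lama3, a chain of epithelial anchoring laminin, differed by -0.10 (SE 0.13) at values of 4.96 to 5.36.

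Of the beta and gamma chains, Lamb1, the most widely used beta chain, read 10.44, 10.63 and 10.51 on wild-type arrays and 10.45, 10.67 and 11.22 on labelled-null arrays, and of the first 2 labelled-null values 1 lay within the wild-type range and 1 just above it. The difference of 0.26 (SE 0.18) became 0.04 (SE 0.11) without labelled-null replicate 3. Lamc1, the gamma chain of most laminins, read 10.09, 9.88 and 9.93 against 10.28, 10.00 and 10.505. Here the groups overlapped by 1 value, the difference was 0.29 (SE 0.13, 95% interval -0.00 to 0.59, unadjusted p = 0.0527), and it was 0.17 (SE 0.12) without labelled-null replicate 3. The second Lamc1 probe set gave 0.40. Lamb2, a beta chain of vessels, muscle and nerve, differed by 0.05 (SE 0.14), and Lamc3 by 0.08 (SE 0.13). Lamb3, the beta chain of epithelial anchoring laminin, read 5.22, 5.37 and 5.35 against 5.16, 5.07 and 5.17. All 3 labelled-null values were below the wild-type values, as for 3.25% of all genes, with a difference of -0.18 (SE 0.11) near the low end of the scale. It was the 1 gene of the 41 of which this was so.

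Among the proteins that join laminin to the rest of the basement membrane, Nid1, the nidogen that binds the gamma chain, read 11.18, 10.93 and 11.01 on wild-type arrays and 11.22, 11.12 and 11.44 on labelled-null arrays. The groups overlapped, and the difference was 0.22 (SE 0.10, unadjusted p = 0.0652), and 0.13 (SE 0.10) without labelled-null replicate 3. Nid2, its paralog, read 8.79 to 8.92 and 8.75 to 8.93 and differed by 0.02 (SE 0.10), or 0.07 (SE 0.11) without that array. Hspg2, which encodes the heparan sulfate proteoglycan perlecan, read 8.76, 8.96 and 8.98 against 8.97, 8.97 and 9.70. Labelled-null replicates 1 and 2 were level with 2 wild-type arrays, and the difference of 0.32 (SE 0.19) was 0.07 (SE 0.12) without labelled-null replicate 3. The dimmer Hspg2 probe set read 6.90, 6.50 and 6.66 against 6.94, 6.86 and 6.92, a difference of 0.22. On that set labelled-null replicate 3 was not the highest array. Agrn, which encodes agrin, a proteoglycan of nerve-muscle synapses and other basement membranes, read 11.29 to 11.47 and 11.27 to 11.45. Its difference of 0.01 (SE 0.08) had a 95% interval of -0.17 to 0.19, and it was 0.07 (SE 0.09) without that array.

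On their brightest probe sets, 4 basement membrane genes were among those that read highest on labelled-null replicate 3. Of these, Hspg2 and Nid1 were not highest there on their further sets. The promoters of these 4 genes are shown. Each is the 250 bases before the annotated start, 5′ to 3′ on the strand of the gene, from RefSeq (GRCm38.p6), with the GC box GGGCGG, or CCGCCC where it lies on the other strand, in capitals. They are chr12:31265043-31265292 (plus strand) for Lamb1, chr13:13437352-13437601 (plus) for Nid1, chr4:137468553-137468802 (plus) for Hspg2 and chr11:55420081-55420330 (minus) for Sparc.
Lamb1: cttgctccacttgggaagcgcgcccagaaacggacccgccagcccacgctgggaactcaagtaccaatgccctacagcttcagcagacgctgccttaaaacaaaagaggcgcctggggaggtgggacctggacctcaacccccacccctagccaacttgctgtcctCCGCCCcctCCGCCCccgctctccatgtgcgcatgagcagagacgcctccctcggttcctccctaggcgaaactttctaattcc
Nid1: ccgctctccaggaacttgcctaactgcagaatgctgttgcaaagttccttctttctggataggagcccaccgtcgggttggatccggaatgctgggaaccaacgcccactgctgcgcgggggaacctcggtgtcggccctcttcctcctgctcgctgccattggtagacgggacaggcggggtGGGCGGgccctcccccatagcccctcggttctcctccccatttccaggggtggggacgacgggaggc
Hspg2: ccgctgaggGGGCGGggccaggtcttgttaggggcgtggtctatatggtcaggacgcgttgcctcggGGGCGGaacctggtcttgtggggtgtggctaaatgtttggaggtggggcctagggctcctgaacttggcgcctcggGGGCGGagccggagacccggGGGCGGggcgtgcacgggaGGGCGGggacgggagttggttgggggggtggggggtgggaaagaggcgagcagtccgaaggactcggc
Sparc: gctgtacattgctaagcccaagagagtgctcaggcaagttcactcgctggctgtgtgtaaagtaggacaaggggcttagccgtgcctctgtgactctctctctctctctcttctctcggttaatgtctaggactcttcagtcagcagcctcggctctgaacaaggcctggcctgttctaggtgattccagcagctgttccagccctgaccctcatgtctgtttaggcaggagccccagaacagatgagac

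The Hspg2 window held 5 GC boxes, that of Lamb1 2, that of Nid1 1 and that of Sparc 0, and their GC content was 70.0%, 62.0%, 64.4% and 54.0%, against a median of 52.4% over all windows. The promoter table held 27 of the 41 genes in 33 windows. On either strand, GGGCGG occurred in 15 of these (45.5%) and in 32.7% of all 32851 windows of this length. The T-box element AGGTGTGA occurred in 0 of the 33 and in 1.12% of all windows, the hypoxia element core ACGTG in 1 (3.03%, that of Itga9) and in 16.6%, and TATAAA in 3 (9.09%, of Postn and Tnc) and in 12.4%. A window counts once for each motif it holds, and these are matches of letters, not sites.

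Fn1, which encodes fibronectin, the main adhesive substrate of migrating crest cells, read 10.41, 10.57 and 10.34 on wild-type arrays and 10.51, 10.61 and 10.89 on labelled-null arrays. The groups overlapped by 1 value, with a difference of 0.23 (SE 0.11, unadjusted p = 0.0726) and of 0.12 (SE 0.10) without labelled-null replicate 3. The dimmer Fn1 probe set, at 6.25 to 6.64, gave -0.13. Vcan, the hyaluronan-binding proteoglycan versican, read 11.68, 11.70 and 11.58 against 11.88, 11.80 and 11.66. The difference was 0.13 (SE 0.08), and the 5 other Vcan probe sets that averaged above 4 gave 0.02 to 0.26.

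Postn, which encodes periostin, an integrin ligand of connective tissue, had a wide scatter, with SDs of 0.44 over the wild-type and 0.73 over the labelled-null arrays. It read 8.20, 8.44 and 7.58 on wild-type replicates 1, 2 and 3 and 8.57, 9.28 and 7.83 on labelled-null replicates 1, 2 and 3. Replicate 2 was highest and replicate 3 lowest in both genotypes, and by number the labelled-null array was higher by 0.37, 0.84 and 0.24. The difference was 0.49 (SE 0.35), and 0.85 (SE 0.27, unadjusted p = 0.0116) without labelled-null replicate 3. Tnc, which encodes tenascin C, an anti-adhesive glycoprotein, showed the same order of numbers in both genotypes, at 6.77, 6.95 and 6.32 against 6.77, 6.98 and 6.37. Its difference was 0.02 (SE 0.21), or 0.19 (SE 0.19) without labelled-null replicate 3, and the same-numbered arrays differed by -0.01, 0.03 and 0.05.

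With the replicate number as a block, 4 of the 41 genes had a higher mean at an unadjusted p under 0.05, against 2.35% of all genes, and 0 passed when adjusted over all genes. These were Postn (0.49, SE 0.13, unadjusted p = 0.00776, adjusted p = 0.830 in limma), Lamc1 (0.29, SE 0.10), Lama5 (0.33, SE 0.12) and Nid1 (0.22, SE 0.08). For each of the 4 the labelled-null array was the higher one in all 3 same-numbered pairs, the differences that this fit itself uses. That was also so of others of the 41, among them Lamb1, Hspg2, Fn1 and Vcan. Without labelled-null replicate 3 and without the block, 2 of the 41 had a higher mean at an unadjusted p under 0.05, Postn and Vcan (0.19, SE 0.08), against 1.78% of all genes. None passed in limma when adjusted, as 0.137% of all genes then did.

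Sparc, which encodes a collagen-binding matricellular protein, read 11.84, 11.87 and 11.46 on wild-type arrays and 12.01, 11.81 and 12.51 on labelled-null arrays. The groups overlapped, the difference was 0.39 (SE 0.18, unadjusted p = 0.0618), and it was 0.19 (SE 0.13) without labelled-null replicate 3. Its second probe set gave 0.46, with 12.19 on labelled-null replicate 3 and 10.66 to 11.06 elsewhere. Of the elastic fibre proteins, Fbn2, the fibrillin of early embryonic microfibrils, read 10.79 to 11.26 and 10.74 to 11.13 and differed by -0.02 (SE 0.14), or 0.09 (SE 0.13) without that array. Eln, which encodes elastin, read 6.30, 6.38 and 6.27 against 6.58, 6.51 and 6.31 and differed by 0.15 (SE 0.12), or 0.23 (SE 0.12) without that array, with overlapping groups.

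The differences of the integrin alpha chains ran from -0.03 to 0.15 over 11 genes, with SEs of 0.10 to 0.17 and a median of 0.03. Without labelled-null replicate 3 they ran from -0.07 (Itga7) to 0.21 (Itga4), with a median of 0.05. Itga5, the alpha chain of the main fibronectin receptor, read 9.38, 9.81 and 9.67 on wild-type arrays and 9.45, 9.70 and 9.75 on labelled-null arrays, a difference of 0.01 (SE 0.13) with an interval of -0.29 to 0.32, and of -0.05 (SE 0.14) without that array. Itga4, whose dimers bind fibronectin and a vascular adhesion molecule, read 7.27, 7.54 and 7.41 against 7.59, 7.65 and 7.43, a difference of 0.15 (SE 0.12). Itga8, which binds nephronectin and fibronectin in mesenchyme, read 7.73, 7.90 and 7.48 against 7.98, 7.72 and 7.41, a difference of 0.00 (SE 0.17), and of 0.15 (SE 0.16) without that array. In these 3 genes the groups overlapped.

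Of the alpha chains that bind laminin, Itga6 read 11.61, 11.40 and 11.72 on wild-type arrays and 11.71, 11.40 and 11.75 on labelled-null arrays, so that replicate 2 was lowest in both genotypes. The difference was 0.04 (SE 0.12), and -0.02 (SE 0.12) without labelled-null replicate 3. Itga3, read at 8.68 to 8.84 and 8.61 to 8.82, differed by -0.03 (SE 0.10), or -0.07 (SE 0.12) without that array. Itga7, the chain of muscle fibres, differed by 0.03 (SE 0.17) at 4.66 to 5.20, or -0.07 (SE 0.18) without it. Itga1, a collagen and laminin receptor, differed by 0.01 (SE 0.14), or 0.05 (SE 0.15) without it, and Itga9, which binds tenascin C and other ligands, by 0.05 (SE 0.12). The collagen receptors Itga2, at 3.97 to 4.38, and Itga10, at 4.55 to 4.83, lay near the filter level and differed by 0.14 (SE 0.13) and 0.07 (SE 0.13). Itga2b, the alpha chain of the platelet fibrinogen receptor, read 6.03 to 6.14 on wild-type and 6.09 to 6.12 on labelled-null arrays, a difference of 0.03 (SE 0.10).

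The integrin beta chains held both the lowest and the highest difference of the 41. Itgb1, the beta chain shared by most of these alpha chains, read 10.01, 9.70 and 9.61 on wild-type arrays and 9.84, 9.86 and 9.66 on labelled-null arrays. The difference was 0.02 (SE 0.12), with an interval of -0.26 to 0.29. It was 0.08 (SE 0.13) without labelled-null replicate 3, and 4 further probe sets averaging above 4 gave 0.00 to 0.18. Itgb3, which pairs with Itga2b on platelets and with Itgav elsewhere, read 6.00, 5.88 and 5.70 against 6.18, 6.00 and 8.14. Labelled-null replicate 3 was 2.19 above the mean of the other 5 arrays. The difference was 0.91 (SE 0.49, 95% interval -0.21 to 2.04, unadjusted p = 0.0985) with all arrays and 0.23 (SE 0.15) without that one.

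Itgb4, the beta chain of hemidesmosomes, read 5.27, 5.48 and 5.48 against 5.37, 5.34 and 6.38, a difference of 0.29 (SE 0.26) and of -0.05 (SE 0.14) without labelled-null replicate 3. Itgb2, the beta chain of leukocytes, read 4.22, 4.05 and 4.10 against 3.99, 4.26 and 5.28, near the filter level on all arrays but the last. Its difference was 0.39 (SE 0.29) with that array and 0.01 (SE 0.15) without it. Itgb7, also a leukocyte chain, read 5.74 to 5.82 on all arrays except labelled-null replicate 3, at 6.34, and differed by 0.17 (SE 0.17) with that array and -0.01 (SE 0.13) without it. Itgb5, a partner of Itgav, differed by 0.06 (SE 0.14), or -0.04 (SE 0.14) without it. Itgb6, an epithelial chain, differed by -0.02 (SE 0.13), or -0.05 (SE 0.15) without it, and Itgb2l, at 4.34 to 4.72, by -0.14 (SE 0.13). Itgb8, a chain that takes part in activating TGF-beta, read 6.83, 7.07 and 6.63 against 6.78, 6.63 and 6.43 and had the most negative difference of the 41, -0.23 (SE 0.15), with overlapping groups. It was -0.14 (SE 0.16) without labelled-null replicate 3.

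Between the arrays, rather than between the genotypes, labelled-null replicate 3 exceeded the mean of the other 5 by more than 0.5 (log2, 1.41-fold) for 8 of the 41 genes and for 3.42% of all genes. They were Itgb3 (2.19), Lama1 (1.70), Itgb2 (1.16), Itgb4 (0.99), Hspg2 (0.78), Sparc (0.71), Lamb1 (0.68) and Itgb7 (0.55). On each of the other arrays this was so of 0 or 1 gene, and of 0.709% to 1.47% of all genes. The 1 was Postn on labelled-null replicate 2. Labelled-null replicate 3 was also the highest of the 6 arrays for 15 of the 41 genes, and for 19.1% of all genes. Just under the limit of 0.5 stood Lama5 and Lamc1, both 0.47 above. Since the array was picked out for its values, these counts are a description with no test. The median gene of the 41 was 0.05 above the other arrays there.

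**Figure D2:**
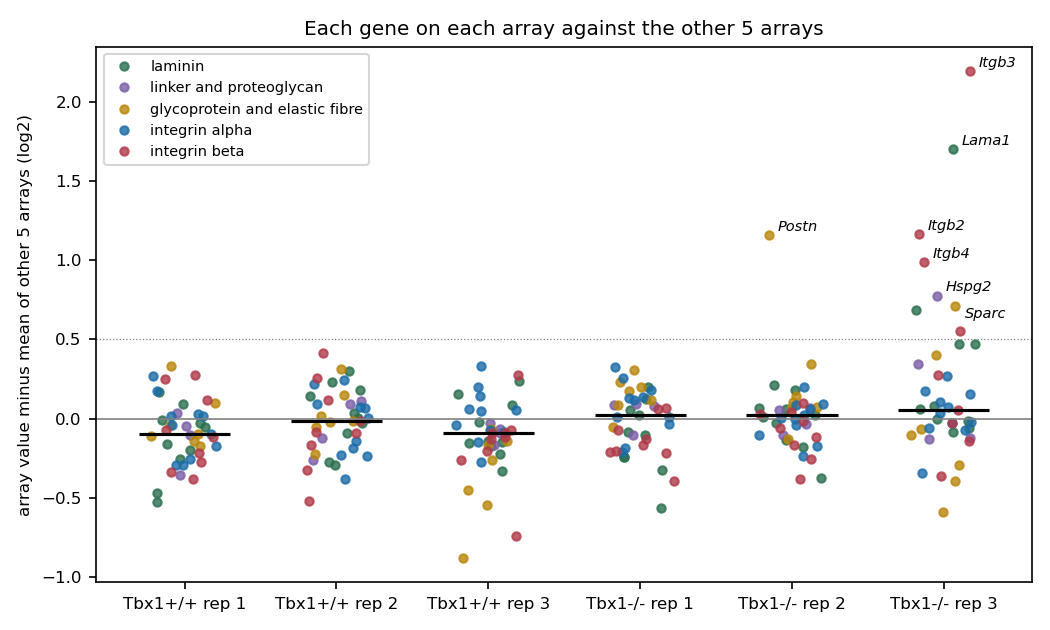
Value of each of the 41 genes on each array minus its mean on the other 5 arrays (log2, vertical axis), by array and coloured by role; the black bar is the median and the dotted line marks 0.5. On labelled-null replicate 3 a group led by Itgb3 (2.19) and Lama1 (1.70) lies above the line, while on the other arrays only Postn on labelled-null replicate 2 does.

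The network collagen genes Col4a1 and Col4a2, which are not among the 41 but lie in the same membrane, were likewise highest on labelled-null replicate 3. Col4a1 read 12.26 there and 11.05 to 11.55 on the other arrays, and Col4a2 read 11.94 and 10.62 to 11.25. Of the markers for other tissues, 6 of the 9 listed trophoblast genes were measured, and their summed level (log2) was 14.38 on labelled-null replicate 3 and 7.21 to 7.53 on the other arrays. Prl8a9 was among those raised there, at 10.85 against 2.76 to 3.68, while Ascl2, at 5.64, was not. Tpbpa read 5.01 against 3.35 to 3.73 and Psg17 4.45 against 3.82 to 4.13. All 4 keratins of trophoblast and other simple epithelia (Krt7, Krt8, Krt18 and Krt19, a list chosen after their values were seen) were highest there, summing to 14.53 against 12.43 to 12.84.

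Of 3 genes of the parietal yolk sac, whose cells lay down a thick membrane of laminin, network collagen and Sparc, Thbd read 11.48 there and 8.48 to 8.59 elsewhere. Plat, at 7.89, lay within the range of the other arrays, 7.57 to 8.18, and Pth1r read 10.84 against 10.38 to 10.70; this list too was chosen after its values were seen. The 5 measured platelet genes summed to 9.54 there against 8.96 to 9.52, and 2 of them, Ppbp (7.48 against 5.75 to 6.72) and Gp1bb (6.81 against 6.23 to 6.55), were highest there. Pf4, Gp9 and Gp5 lay within the range of the other arrays. Of the 5 macrophage markers Csf1r, which trophoblast also makes, read 11.77 against 6.30 to 7.94, and Cd68 6.73 against 5.95 to 6.42, while Cx3cr1, Adgre1 and Fcgr1 lay within the range of the other arrays. This list summed to 11.87 against 8.16 to 8.98. The 3 decidua genes summed to 10.496 against 8.55 to 9.28, where Prl8a2 read 9.998 against 4.41 to 7.72, Des was also highest and Dcn lay within the range. The 7 genes of surface and oral epithelium summed to 14.54 against 13.32 to 13.64. Of these Krt8 and Krt18, which are also in the keratin list, were highest there, Krt5 and Trp63 were lowest, and Epcam, Cdh1 and Krt14 lay within the range. The 6 endothelial markers summed to 10.86 against 10.81 to 11.03. Cdh5 (7.70 against 6.87 to 7.12), Tie1 (7.28 against 6.81 to 7.08) and Pecam1 (7.50 against 7.22 to 7.45) were highest there, Emcn was lowest, and Kdr and Tek lay within the range. The red cell and smooth muscle lists were lowest there, summing to 14.28 against 14.51 to 14.58 and to 8.35 against 8.79 to 9.09. Hbb-bh1, Hba-x, Acta2 and Tagln were lowest there, Hba-a1, below 4 on every array, was highest, and Alas2, Myh11 and Cnn1 lay within the range. The nerve and glia list and the arch mesenchyme list summed to values within the range of the other arrays. The part of these tissues in the laminin and integrin values of labelled-null replicate 3 was not tested.

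**Figure D3:**
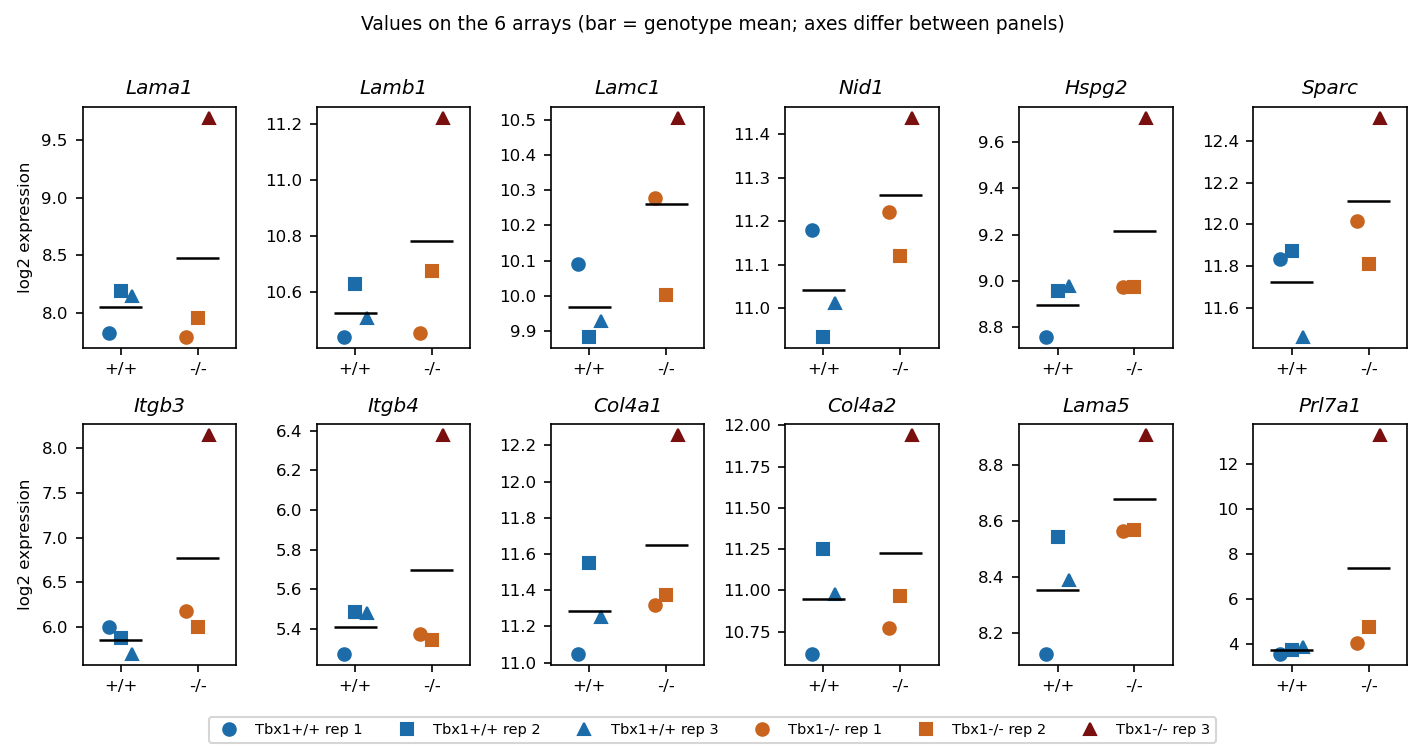
Log2 expression on the 6 arrays (vertical axes, which differ between panels) for 9 of the 41 genes, 2 network collagen genes and the placental hormone Prl7a1, by genotype; bars are genotype means and the dark triangle is labelled-null replicate 3. It is the highest point in every panel, and for Lama1, Hspg2 and Itgb4 the other 2 labelled-null arrays lie at the level of the wild-type arrays.

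The partners of these genes were compared by lists. Of 21 tested integrin adaptors and focal adhesion genes, which link integrins to actin, 0 passed the adjusted threshold in limma. The median difference was -0.03. At an unadjusted p under 0.05, 0 had a higher mean and 1 a lower one, where 1.47% and 1.2% of all genes did. The lower one was Parva, an actin-binding partner of the kinase-like adaptor Ilk. It read 10.40, 10.55 and 10.37 against 10.27, 10.19 and 10.25 (-0.20, SE 0.08). All its labelled-null values were below the wild-type values, as for 3.25% of all genes. Ilk itself differed by 0.00 and Tln1, the talin that activates integrins, by -0.05. Lims2, an adaptor, read 6.63 on labelled-null replicate 3 and 4.44 to 4.78 elsewhere. Among 16 other matrix receptors 0 were higher and 1 lower at that level, Sdc2, a syndecan (-0.18, SE 0.08), with a median of 0.05. Itgav, an alpha chain outside the symbol rule, differed by 0.05 at 11.99 to 12.16, and Dag1, the laminin receptor dystroglycan, by -0.02. The differences of Parva and Sdc2 without labelled-null replicate 3 were -0.20 and -0.18, with unadjusted p-values of 0.0715 and 0.0988, and those of Ilk, Tln1, Itgav and Dag1 were -0.06, -0.18, 0.07 and -0.05.

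Elastic fibre partners had 5 positive and 11 negative differences over 16 genes, with a median of -0.05, and 0 passed the adjusted threshold. Fbln5, a fibulin that organizes elastin and binds integrins, read 8.59, 8.63 and 8.45 on wild-type arrays and 7.90, 8.19 and 7.90 on labelled-null arrays. All labelled-null values were below the wild-type values, as for 3.25% of all genes. The difference was -0.56 (SE 0.12, unadjusted p = 0.00120, adjusted p = 0.537 in limma), and -0.51 without labelled-null replicate 3. Lox, the enzyme that cross-links elastin and collagen, read 6.9996, 6.96 and 6.45 against 6.31, 6.52 and 6.07 (-0.50, SE 0.18). These were the 2 genes of the list with a lower mean at an unadjusted p under 0.05, where 1.2% of all genes had one. In the list 0 had a higher mean, against 1.47% of all genes. Without labelled-null replicate 3 Lox differed by -0.38 (unadjusted p = 0.0683).

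Of 10 other matricellular genes 3 had an unadjusted p under 0.05, 1 with a higher and 2 with a lower mean, and 0 passed the adjusted threshold. Over all genes 1.47% had a higher and 1.2% a lower mean at that level, to be set beside the next lists too. Sparcl1, a relative of Sparc, read 7.39, 7.52 and 7.42 against 7.93, 7.84 and 7.81 (0.41, SE 0.10, adjusted p = 0.959 in limma). The Sparc-related Smoc1 and Smoc2 differed by -0.44 (SE 0.17) and -0.71 (SE 0.26). Without labelled-null replicate 3 Sparcl1, Smoc1 and Smoc2 differed by 0.44, -0.59 and -0.68, each still at an unadjusted p under 0.05 in limma. In the hyaluronan and proteoglycan list, 1 of 13 genes had a higher mean at that level and 0 a lower one. It was Has2, the hyaluronan synthase whose product Vcan binds, at 9.31, 9.27 and 9.22 against 9.78, 9.68 and 9.33 (0.33, SE 0.12). Its difference was 0.47 (unadjusted p = 0.00144 in limma) without labelled-null replicate 3. Of 16 matrix proteases and inhibitors 1 was higher and 0 lower, Adamts9, a protease that cleaves versican (0.36, SE 0.14), with 0.30 (unadjusted p = 0.0911) without labelled-null replicate 3. Of 13 basement membrane partners 0 were higher and 0 lower. Without labelled-null replicate 3, Frem2 of this list was higher at that level (0.44, unadjusted p = 0.00764 in limma), as were 1.78% of all genes. Has1 of the hyaluronan list and Adamts5 of the protease list were then lower, by -0.39 and -0.46 (unadjusted p = 0.0478 and 0.0449 in limma). The medians of these 3 lists were -0.06, 0.04 and 0.05, and 0 of their genes passed when adjusted in limma.

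**Figure D4:**
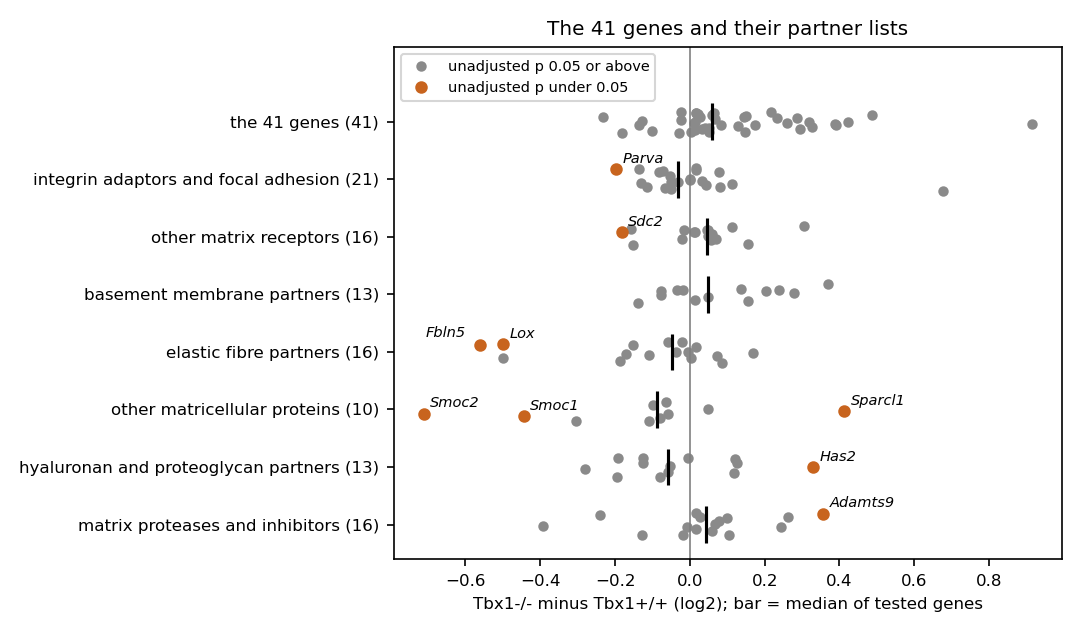
Difference between labelled-null and wild-type arrays (log2, horizontal axis) of every tested gene, for the 41 genes and 7 partner lists with the number of tested genes in brackets; bars are medians and named points have an unadjusted p under 0.05. The medians lie between -0.09 and 0.06, and the genes furthest to the left are Smoc2 (-0.71) and Fbln5 (-0.56).

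Larger differences lay elsewhere. Of 5 core muscle regulators of the same arches, 2 fell past the adjusted threshold in limma, Myf5 with a difference of -2.33 (SE 0.27) and Tcf21 of -1.53 (SE 0.13), though with the mean of probe sets 0 of all genes passed. Of 15 hypoxia-induced genes 13 had a higher mean and 0 a lower one at an unadjusted p under 0.05, against 1.47% and 1.2% of all genes. Their median was 0.64, and 0 passed when adjusted. Both lists were chosen with earlier results of these data known. The laminin genes had a median of 0.07, the integrin alpha chains of 0.03 and the integrin beta chains of 0.06 on the same scale, and without labelled-null replicate 3 these were 0.04, 0.05 and -0.04.

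Other probe sets of the same genes were read as well. 27 of the 41 genes had more than 1 probe set, 93 in all. Of the 42 further sets that averaged above 4, 27 differed in the same direction as the brightest set of their gene, and their differences ran from -0.30 to 0.46. The lowest was the dimmest Nid1 set, at 3.84 to 4.45, and the highest the second set of Sparc. Lamb1 gave 0.26, 0.24 and 0.22 on its 3 sets above 4, with labelled-null replicate 3 highest on each. Itgb3 gave 0.91 on the brightest set and 0.21 on a dimmer one, with labelled-null replicate 3 highest on both. The dimmer set read 4.99 on that array and 4.02 to 4.52 elsewhere. For Hspg2 and Nid1 labelled-null replicate 3 was highest on the brightest set alone. The dimmer Hspg2 set read 6.92 there and 6.94 on labelled-null replicate 1. The further Nid1 sets read 7.47 there against 7.66 on wild-type replicate 1, and 4.31 against 4.45 on wild-type replicate 3.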

How the data were processed

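The deposited table holds log2 expression for 45101 probe sets, made by the authors with GCRMA, per the submitters' processing notes, from labelled cDNA amplified from 100 ng of total RNA; the log2 scale was read from the values (1.95 to 15.11). GCRMA equalizes the arrays and compresses differences near background. Array medians were 6.08 to 6.15, and 3 arrays per genotype limit the precision.

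Of the probe sets, 34958 had 1 gene symbol in the platform annotation, and all 41 genes described matched the reference table by gene ID. Genotypes were compared over all 16074 genes with limma 3.58.1 in R 4.3.3 (lmFit, eBayes with intensity trend, 95% intervals from its moderated SE, Benjamini-Hochberg, threshold 0.05), a step tested on simulated data. Genes and lists were chosen with earlier results of these data known. Text names genes at an unadjusted p under 0.05 or with separate groups, a list fixed by role and the leading genes of partner lists; any others were named after their values were seen.

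No arrays were identical: within a genotype the SD of their difference was 0.247 to 0.411. Deviations from genotype means correlated at 0.261, 0.13 and 0.135 for same-numbered arrays and at -0.195 to 0.065 otherwise. On the data alone, the labels' numbers were therefore treated as pairs in the block alternative and where same-numbered arrays are compared. The main comparison was fitted by genotype alone, without pairs. Alternatives changed the filter, floor, probe set, normalization, variance trend, weights, block and arrays.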

Additional observations from a re-analysis of the deposited data

How the results depend on the processing

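Over 15 alternatives none of the 41 genes passed an adjusted p of 0.05, the lowest being 0.830 (Postn, replicate block). At an unadjusted p under 0.05 the count of genes with a higher mean was 0 in the main comparison. It was 2 with the mean of probe sets (Hspg2, Lamc1), 1 after a further quantile normalization (Lamc1), 1 with centred arrays (Lama5), 3 with array weights (Fn1, Postn, Vcan) and 4 with the replicate block (Lama5, Lamc1, Nid1, Postn). With 1 array left out it ranged from 0 to 4, with 4 without labelled-null replicate 1 (Fn1, Itgb2, Lama5, Lamb1) or 2 (Itgb3, Lamc1, Nid1, Sparc). The count with a lower mean was 0, and 1 with array weights (Lamb3). Over all genes and both directions, 2.68% had an unadjusted p under 0.05 in limma in the main comparison. The share was 3.03% with the mean of probe sets, 2.72% after quantile normalization and 2.61% with centred arrays. It was 4.48% with array weights, 4.24% with the replicate block and 2.25% to 3.83% with 1 array left out. The median difference of 0.06 ranged from 0.0689 to 0.109 with 1 array left out. The sign of the difference was the same in every alternative for 19 of the 41 genes. Without labelled-null replicate 3 Lama1 moved from 0.42 to -0.18, Itgb3 from 0.91 to 0.23 and Lamb1 from 0.26 to 0.04. Postn was 0.13 without labelled-null replicate 2.

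Over all genes 2 were higher and 4 lower past the adjusted threshold in limma. There were 0 and 2 if low genes were kept, if a floor of 4 was set or if the trend was left out, 0 and 0 with the mean of probe sets (477 genes at an unadjusted p under 0.05 in limma), 1 higher after quantile normalization or with centred arrays, and 4 higher and 6 lower with the replicate block. With 1 array left out the higher genes ranged from 0 to 14 and the lower from 0 to 8. The causes were not tested. Values near 4, as of Itga2, Itgb2, Itgb2l and Itga10, are close to background and limit what could be seen.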
